A study of Cavia porcellus with 13 samples.

Results

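The genes described here are 10 genes used by fat cells, though not by them alone, measured in guinea pig skin: leptin (LEP), adiponectin (ADIPOQ), PPARG, ANGPTL4, PLIN1, CIDEC, FABP4, LIPE, PNPLA2 and GPD1. They were chosen with earlier results of these data known. Their rows were picked by symbol, without regard to case, from a table of 26855 genes. Each symbol was found on a single row, and all 10 were among the 14979 genes that entered the tests. Adipocytes lie beneath the dermis, store triglyceride in a large droplet and release it as fatty acids. PPARG is the transcription factor that switches on the adipocyte programme, perilipins and CIDE proteins coat the droplet, and lipases such as those made from PNPLA2 and LIPE break it down. Leptin and adiponectin are hormones that fat cells secrete. In skin, fat cells form the white fat layer under the dermis, and PPARG is also used by sebaceous gland cells.

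Skin was sampled on day 4 after tick attachment, and RNA of 13 libraries was sequenced to compare skin that had met ticks before with skin that had not. The library titles carry the prefixes CK1 and EF19-5, which the labels leave unexplained and which were taken here as 2 experiments. In CK1 there were 3 libraries of bitten skin labelled saliva immune, 3 of bitten skin at a first exposure, and 2 of naive skin without a bite (naive replicates 1 and 2). In EF19-5 there were 2 libraries of bitten skin labelled 3 bites, 2 labelled 2 bites, and 1 of naive skin without a bite (naive replicate 3). Naive skin carries the same day 4 label. The labels do not say how animals became saliva immune, nor whether each library is an animal of its own. The spread behind the p-values is therefore that among libraries, and it may be technical. Exposure history differs between the experiments, so experiment and history cannot be told apart.

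All levels are TPM, a gene's share of a library's transcripts after allowing for its length. Tests ran on log2(TPM + 1). The depth behind them is unknown. Between 13270 and 14391 genes per library reached 1 TPM, and the keratin KRT14 of the basal epidermis stood at 4287 to 14039 TPM. Genes of skeletal muscle (25 of 29 listed genes in the table) took 2.30% to 9.65% of summed TPM in bitten skin of CK1 and 9.35% and 16.3% in its naive skin. In EF19-5 they took 0.585% to 1.45% in bitten skin and 2.31% in the naive library. The muscle share thus differed between libraries, and in such bulk samples fewer cells of a type and less RNA per cell cannot be told apart. A TPM being a share, a large muscle fraction also lowers every other gene's value in that library.

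In CK1, 9 of the 10 genes stood higher in bitten than in naive skin, by 2.46-fold (PNPLA2) to 6.32-fold (LEP), and GPD1 stood lower at 0.535-fold. In all 9, the lowest of the 6 bitten libraries lay above the higher of the 2 naive ones. Among all genes tested, 10.6% were separated in this direction and 5.02% in the other. None of the 10 passed limma after Benjamini-Hochberg adjustment over all genes (adjusted p from 0.0567 for ANGPTL4 to 0.259 for GPD1), and 0.0467% of all genes did, 0.0334% higher and 0.0134% lower. At an unadjusted p under 0.05 all 10 passed, 9 higher and 1 lower, against 15.0% of all genes, 11.1% higher and 3.92% lower. The median log2 difference of the 10 genes was 1.87, against 0.14 over all genes tested. The genes were chosen with earlier results of these data known, and most of them tended to be high in the same libraries. These counts and medians are therefore a description, not 10 independent results.

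In EF19-5 the same genes showed no common direction. Bitten skin, with 3 bites and 2 bites pooled as equal means, stood above the naive library for 3 genes and below it for 7, with log2 differences of -1.09 (GPD1) to 0.40 (ANGPTL4) and a median of -0.15 against 0.01 over all genes. For 8 of the 10 the naive library lay inside the range of the 4 bitten ones. ANGPTL4 lay above it in every bitten library and GPD1 below it, and 16.9% and 15.3% of all genes were separated in those directions. None of the 10 passed limma (adjusted p of 1 for each), against 0.0134% of all genes, and at an unadjusted p under 0.05 only GPD1 did, against 3.30% of all genes, 1.92% higher and 1.38% lower. This comparison rests on 1 naive library, whose own spread is taken from the other libraries.

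**Figure D1:**
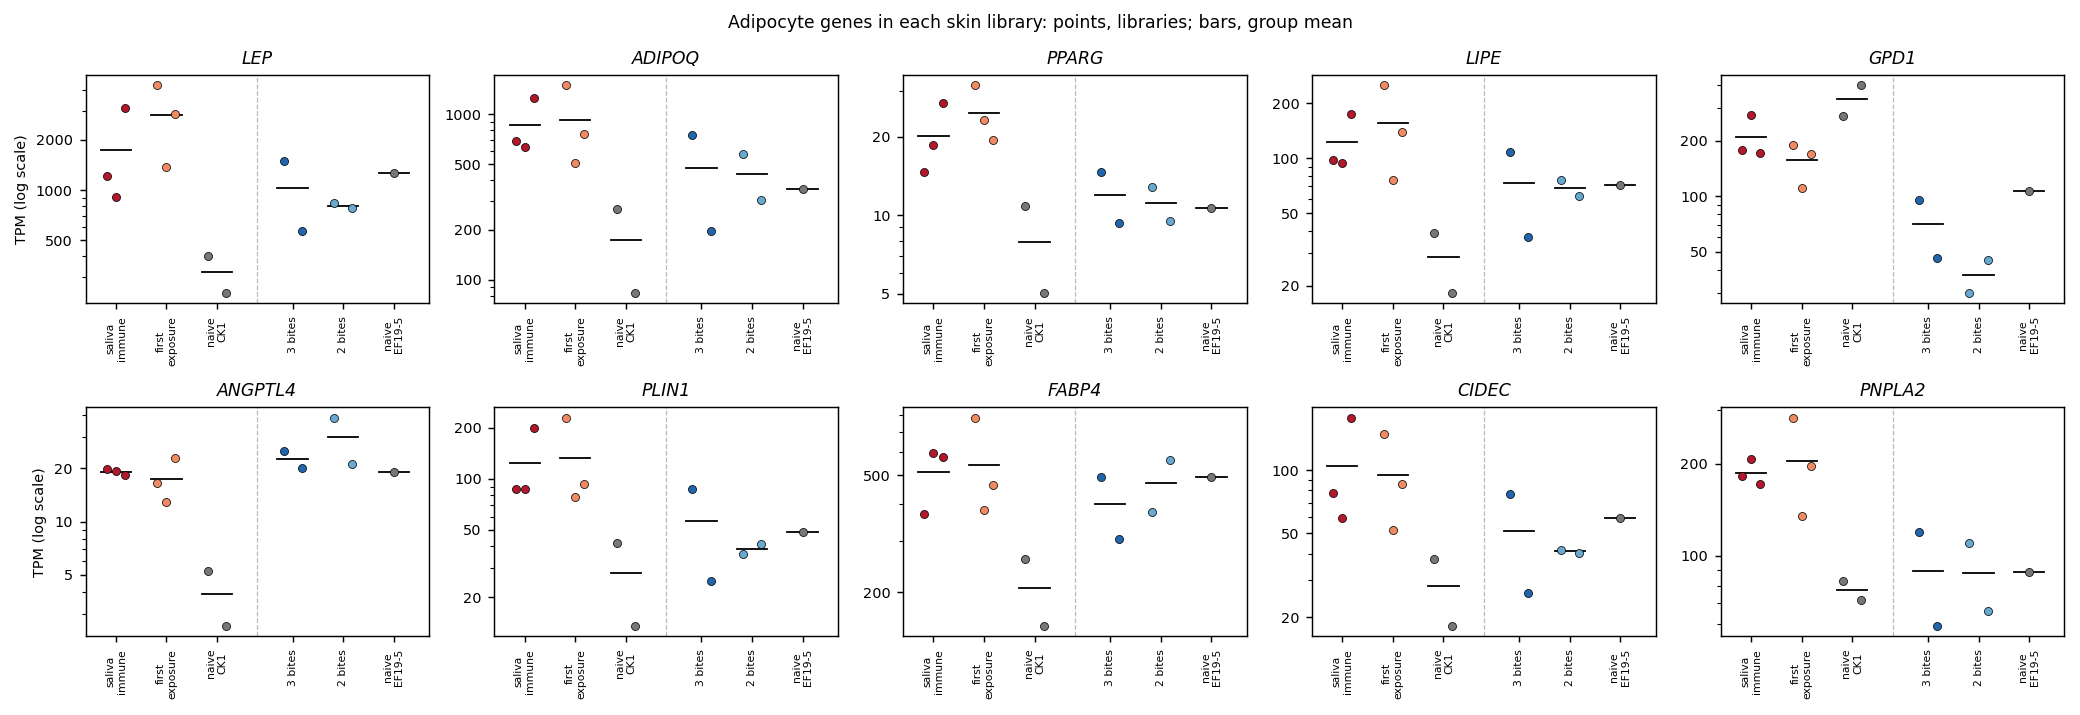
TPM of each of the 10 genes (log axis) in every library, by group, with the CK1 groups left of the dashed line and the EF19-5 groups right of it; points are libraries and bars are group means. In CK1 the 2 naive libraries lie below all 6 bitten ones for every gene but GPD1, while in EF19-5 the naive library lies among the bitten ones for 8 genes.

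Leptin signals the size of fat stores to the brain and also acts on immune cells. LEP stood at 1218, 906 and 3114 TPM in saliva immune skin and at 4288, 1377 and 2853 TPM in first exposure skin, against 401 and 240 TPM in naive skin of CK1. In EF19-5 it stood at 1501 and 563 TPM in 3 bites skin and at 838 and 775 TPM in 2 bites skin, against 1267 TPM in the naive library. All 6 bitten CK1 libraries therefore exceeded both CK1 naive ones, whereas in EF19-5 the naive library was exceeded only by 3 bites replicate 1. The log2 difference between bitten and naive skin was 2.66 (SE 0.552, adjusted p = 0.133) in CK1 and -0.56 (SE 0.756, adjusted p = 1) in EF19-5. LEP was among the most abundant transcripts of the tissue, ranking 18th of the tested genes in first exposure replicate 1 and 529th in naive replicate 2. By group mean, LEP ran from 2839 ± 1455 TPM in first exposure (SD, n = 3) through 1746 ± 1195 TPM in saliva immune skin (n = 3), 1267 TPM in the EF19-5 naive library, 1032 ± 663 TPM with 3 bites (n = 2) and 807 ± 44.7 TPM with 2 bites (n = 2) to 321 ± 114 TPM in CK1 naive skin (n = 2). Down to 2 bites, the libraries of neighbours in that order overlapped, and CK1 naive skin lay below every other library.

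The leptin receptor gene LEPR was listed at 0 in 12 libraries and at 0.0311 TPM in naive replicate 3, and did not enter the tests. Adiponectin, which promotes insulin sensitivity and fatty acid oxidation, followed LEP. ADIPOQ stood at 692, 639 and 1253 TPM in saliva immune and at 1509, 506 and 757 TPM in first exposure skin, against 266 and 82.9 TPM in CK1 naive skin. In EF19-5 it stood at 756 and 197 TPM in 3 bites and at 573 and 304 TPM in 2 bites skin, against 352 TPM in naive skin. Bitten and naive skin of CK1 did not overlap, and the EF19-5 naive library was near the middle of its bitten ones. The log2 difference was 2.47 (SE 0.614, adjusted p = 0.162) in CK1 and 0.19 (SE 0.840, adjusted p = 1) in EF19-5. Both adiponectin receptor genes entered the tests. ADIPOR1 stood at 138 to 187 TPM in bitten CK1 skin against 157 and 163 TPM in its naive skin, and ADIPOR2 at 46.8 to 96.1 TPM in bitten against 43.3 and 67.6 TPM in naive CK1 skin. In EF19-5, ADIPOR1 stood at 128 to 135 TPM in the 4 bitten libraries, all below the 154 TPM of the naive one, and ADIPOR2 at 67.4 to 109 TPM in bitten against 84.3 TPM in naive skin.

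PPARG, far less abundant than the hormones, stood at 14.6, 18.7 and 27.0 TPM in saliva immune and at 31.6, 23.2 and 19.45 TPM in first exposure skin, against 10.8 and 5.04 TPM in CK1 naive skin. In EF19-5 it stood at 14.6 and 9.32 TPM in 3 bites and at 12.8 and 9.55 TPM in 2 bites skin, against 10.7 TPM in naive skin. All bitten CK1 libraries lay above the CK1 naive ones, and those of EF19-5 lay on both sides of their naive library. Its log2 difference was 1.43 (SE 0.316, adjusted p = 0.145) in CK1 and 0.08 (SE 0.433) in EF19-5. ANGPTL4 is a secreted protein, induced by PPARs, fasting and low oxygen, that inhibits lipoprotein lipase and so limits fat uptake. It stood at 19.7, 19.3 and 18.3 TPM in saliva immune and at 16.5, 12.9 and 22.8 TPM in first exposure skin, against 5.25 and 2.57 TPM in CK1 naive skin. In EF19-5 it stood at 25.1 and 20.1 TPM in 3 bites and at 38.6 and 21.2 TPM in 2 bites skin, against 19.0 TPM in naive skin.

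ANGPTL4 was thus low in both naive libraries of CK1 and stood at 12.9 TPM or more in the other 11. The log2 difference was 2.01 (SE 0.285, adjusted p = 0.0567) in CK1 and 0.40 (SE 0.390, adjusted p = 1) in EF19-5. It had the narrowest 95% interval of the 10 genes in CK1 (1.37 to 2.64), and was the only one of them called in any of the 23 alternative settings for that comparison. It was called in 3 of them, with a pseudocount of 0.1 TPM (adjusted p = 0.0422) and without 2 bites replicate 1 (0.0479) or 2 bites replicate 2 (0.0481), where its log2 difference was 2.26, 2.01 and 2.01. The adjusted p ranged up to 0.626, without naive replicate 2. Settings that fit 1 bitten term over both experiments are counted among the 23.

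The droplet and carrier genes were PLIN1, whose product perilipin guards the droplet surface, CIDEC, which fuses droplets into a larger one, and FABP4, the fatty acid carrier of adipocytes. PLIN1 stood at 87.3, 87.3 and 199 TPM in saliva immune and at 229, 77.8 and 93.4 TPM in first exposure skin, against 41.8 and 13.6 TPM in CK1 naive skin. CIDEC stood at 77.5, 59.0 and 177 TPM in saliva immune and at 148, 52.0 and 85.7 TPM in first exposure skin, against 37.9 and 18.2 TPM in CK1 naive skin. FABP4 stood at 369, 592 and 577 TPM in saliva immune and at 782, 380 and 463 TPM in first exposure skin, against 261 and 154 TPM in CK1 naive skin. None of the 3 genes overlapped between bitten and naive CK1 skin. Their log2 differences were 2.24 for PLIN1 (SE 0.588, adjusted p = 0.175), 1.74 for CIDEC (SE 0.533, adjusted p = 0.212) and 1.34 for FABP4 (SE 0.339, adjusted p = 0.164).

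In EF19-5, PLIN1 stood at 87.4 and 25.1 TPM in 3 bites and at 36.3 and 41.1 TPM in 2 bites skin, against 48.5 TPM in naive skin. CIDEC stood at 76.8 and 25.9 TPM in 3 bites and at 41.7 and 40.4 TPM in 2 bites skin, against 59.5 TPM in naive skin. FABP4 stood at 493 and 303 TPM in 3 bites and at 375 and 562 TPM in 2 bites skin, against 493 TPM in naive skin. Each naive value fell within the bitten range, and the 2 libraries of 3 bites skin were farther apart than those of 2 bites skin for PLIN1 and CIDEC. The log2 differences were -0.18 for PLIN1 (SE 0.805), -0.46 for CIDEC (SE 0.730) and -0.23 for FABP4 (SE 0.464).

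Fat breakdown starts with PNPLA2 (adipose triglyceride lipase), which removes the first fatty acid, and goes on with LIPE (hormone-sensitive lipase), which acts on the diglyceride. LIPE stood at 98.2, 94.0 and 174 TPM in saliva immune and at 252, 76.2 and 139 TPM in first exposure skin, against 39.0 and 18.2 TPM in CK1 naive skin. PNPLA2 stood at 182, 207 and 171 TPM in saliva immune and at 282, 135 and 197 TPM in first exposure skin, against 82.7 and 71.7 TPM in CK1 naive skin. Both lipase genes stood above every naive CK1 library in all 6 bitten ones, with log2 differences of 2.21 for LIPE (SE 0.507, adjusted p = 0.147) and 1.3 for PNPLA2 (SE 0.318, adjusted p = 0.157). In EF19-5, LIPE stood at 108 and 36.9 TPM in 3 bites and at 76.1 and 61.7 TPM in 2 bites skin, against 71.6 TPM in naive skin. PNPLA2 stood at 119 and 59.2 TPM in 3 bites and at 110 and 66.4 TPM in 2 bites skin, against 88.9 TPM in naive skin. Both naive values lay within the bitten range, with log2 differences of -0.12 (SE 0.694) for LIPE and -0.07 (SE 0.435) for PNPLA2.

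In CK1, GPD1 ran against the other 9 genes, and in EF19-5 it was 1 of 7 that stood lower. Its enzyme makes the glycerol phosphate backbone of triglyceride in fat, and in fast muscle fibres it is part of the glycerol phosphate shuttle. GPD1 stood at 179, 276 and 171 TPM in saliva immune and at 189, 111 and 170 TPM in first exposure skin, against 273 and 401 TPM in CK1 naive skin. In EF19-5 it stood at 95.3 and 46.6 TPM in 3 bites and at 29.9 and 45.1 TPM in 2 bites skin, against 107 TPM in naive skin. Saliva immune replicate 2 overlapped the naive skin of CK1, and the EF19-5 naive library exceeded its 4 bitten ones. The log2 difference was -0.90 (SE 0.324, adjusted p = 0.259) in CK1 and -1.09 (SE 0.444, adjusted p = 1) in EF19-5. By group mean the order was CK1 naive (337 ± 90.1 TPM, n = 2), saliva immune (209 ± 58.4, n = 3), first exposure (157 ± 40.6, n = 3), EF19-5 naive (107, n = 1), skin with 3 bites (70.9 ± 34.4, n = 2) and skin with 2 bites (37.5 ± 10.7, n = 2). In that order CK1 naive overlapped saliva immune skin and saliva immune overlapped first exposure skin. The later neighbours did not overlap, but first exposure and EF19-5 naive skin (111 and 107 TPM) only just stood apart. So did 3 bites and 2 bites skin (46.6 and 45.1 TPM).

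The library with the largest muscle share, naive replicate 2 at 16.3%, had the highest GPD1, and 2 bites replicate 1, with the smallest share of 0.585%, had the lowest. With the muscle share as a covariate the log2 difference of GPD1 was -0.42 in CK1 and -0.46 in EF19-5, a move of over 1.5 times in both. The same covariate left ANGPTL4 at 2.00 and LEP at 2.27 in CK1, and gave -1.07 for LEP and -0.93 for CIDEC in EF19-5. With the muscle genes taken out and the remaining TPM rescaled, GPD1 differed by -1.01, LEP by 2.56 and ADIPOQ by 2.36 in CK1.

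**Figure D2:**
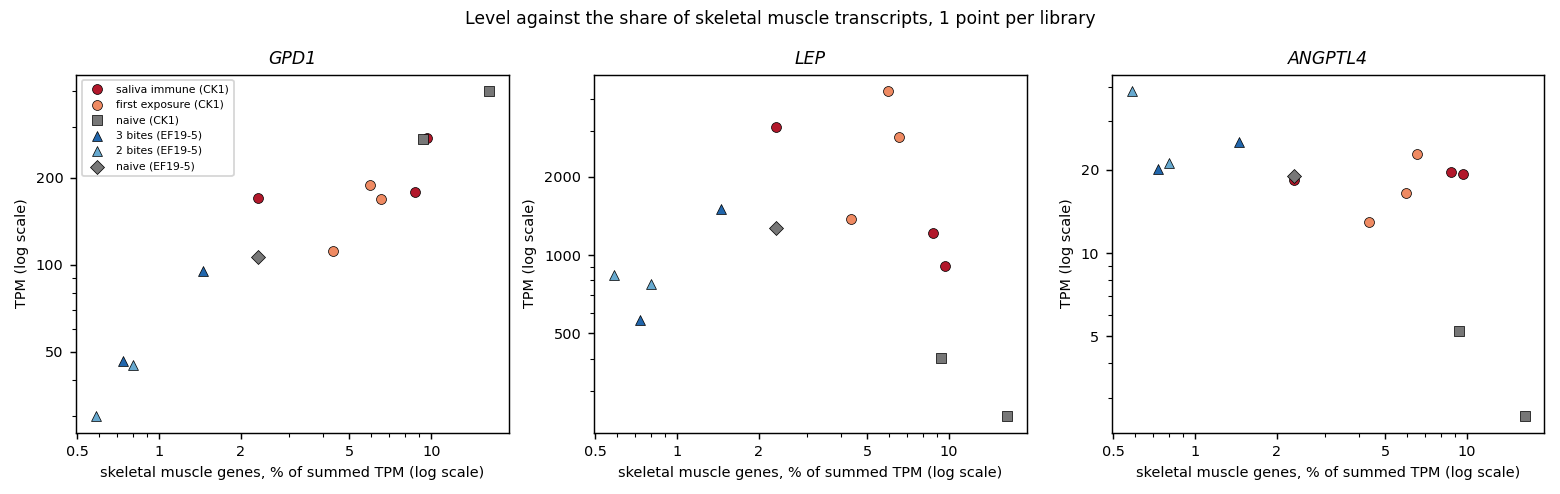
TPM of GPD1, LEP and ANGPTL4 (log axis) against the share of skeletal muscle genes in summed TPM (percent, log axis), 1 point per library, coloured by group. GPD1 stands at 29.9 TPM at the lowest muscle share, 0.585%, and at 401 TPM at the highest, 16.3%, while the 2 naive CK1 libraries lie apart at the lower right for LEP and ANGPTL4.

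The contrast of the 2 changes, bitten over naive in CK1 minus bitten over naive in EF19-5, was positive for all 10 genes. It was largest for LEP, at 3.22 on the log2 scale (95% interval 1.13 to 5.30), followed by PLIN1 (2.42, 0.20 to 4.64), LIPE (2.33, 0.42 to 4.25), ADIPOQ (2.28, -0.04 to 4.59) and CIDEC (2.20, 0.19 to 4.22). ANGPTL4 (1.61, 0.53 to 2.68), FABP4 (1.57, 0.29 to 2.85), PNPLA2 (1.37, 0.17 to 2.57) and PPARG (1.35, 0.16 to 2.54) came next, and GPD1 lay near 0 (0.19, -1.03 to 1.42). None passed limma (adjusted p = 0.999 for each), nor did any gene of the table (0.00% of 14979). At an unadjusted p under 0.05, 8 of the 10 passed, all higher, against 2.81% of all genes (421), 2.24% higher and 0.574% lower. The median was 1.90, against 0.12 over all genes. As in CK1, this count and median describe genes chosen with earlier results known and are not independent results. In simulated data the fit found 62.7% of genes whose 2 changes differed by a log2 size of 2. It found 90.9% at a size of 3 and 1.49% at a size of 1, and it also called 13 genes that were not changed. There 200 genes drawn at random were changed at once, with noise drawn independently for each gene. Their spread need not be that of the 10 genes, whose contrast had an SE of 0.483 (ANGPTL4) to 1.04 (ADIPOQ). These rates therefore need not hold for the 10 genes, which tended to be high in the same libraries.

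**Figure D3:**
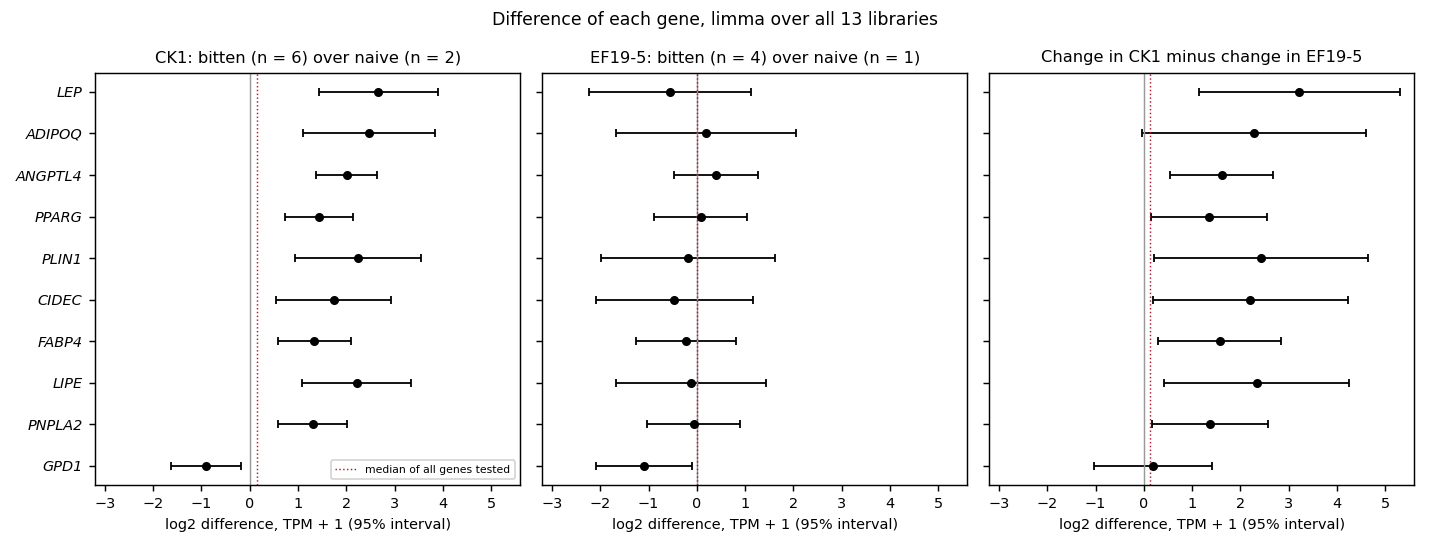
Log2 difference of each gene with its 95% interval from limma for bitten over naive skin in CK1, bitten over naive skin in EF19-5, and the first minus the second; the dotted line is the median of all genes tested. In CK1 every interval lies above 0 except that of GPD1, which lies below it, and in EF19-5 every interval but that of GPD1 spans 0.

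The contrast also holds the difference between the naive libraries, whose size against the contrast varied by gene. It was greatest for GPD1, at -1.62 against a contrast of 0.19. For the other genes it ran from 0.21 of 1.37 for PNPLA2 to 2.08 of 1.61 for ANGPTL4. The EF19-5 naive library stood above both CK1 naive libraries for 8 of the 10 genes, with log2 differences of 2.08 for ANGPTL4, 2.03 for LEP, 1.39 for LIPE, 1.3 for FABP4, 1.24 for ADIPOQ, 1.15 for CIDEC, 0.99 for PLIN1 and 0.21 for PNPLA2. PPARG (0.47) overlapped, and GPD1 was lower in the EF19-5 naive library (-1.62). None of the 10 passed limma (adjusted p from 0.210 for ANGPTL4 to 0.842 for PNPLA2), nor did any other gene (0.00%), and at an unadjusted p under 0.05 there were 4 of the 10, against 15.1% of all genes, 8.73% higher and 6.40% lower. Separation of this kind was common, with 53.8% of all genes above and 24.5% below both CK1 naive libraries. The 2 CK1 naive libraries also differed between themselves: ADIPOQ was 3.21 times and PLIN1 3.07 times higher in naive replicate 1 than in naive replicate 2. Without naive replicate 2 the CK1 difference was 1.63 for ADIPOQ and 2.29 for LEP, with medians of 1.34 over the 10 genes and 0.00 over all genes, and without naive replicate 1 it stood at 3.30 for ADIPOQ and 3.03 for LEP, with medians of 2.33 and 0.29. Without naive replicate 2 the contrast of the 2 changes was 1.44 for ADIPOQ and 0.87 for PPARG, with a median of 1.35.

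The difference between the naive libraries themselves was smaller without naive replicate 2, at 0.40 for ADIPOQ, 0.21 for PLIN1, 0.86 for LIPE, 0.64 for CIDEC and -0.01 for PPARG, with a median of 0.52 over the 10 genes against 1.19 with both. Without naive replicate 1 it was 2.07 for ADIPOQ and 1.76 for PLIN1. With the muscle covariate it was 1.18 for LEP, 0.37 for CIDEC and -0.58 for GPD1.

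Between the bitten groups of an experiment the direction of the genes depended on single libraries. Saliva immune against first exposure skin gave log2 differences of -0.76 (LEP) to 0.41 (GPD1), with 3 of 10 above 0 and a median of -0.04 against 0.02 over all genes. None of the 10 passed limma (adjusted p = 1 for each), nor did any other gene (0.00%). At an unadjusted p under 0.05 there were 0 of the 10, against 2.34% of all genes, 1.80% higher and 0.547% lower. LEP averaged 1746 ± 1195 TPM in saliva immune and 2839 ± 1455 TPM in first exposure skin (SD, n = 3 each), with overlapping libraries. As single libraries of these groups were left out, the number above 0 ranged from 1 of 10 (without first exposure replicate 2, median -0.33) to 8 of 10 (without first exposure replicate 1, median 0.23). It was 6 without saliva immune replicate 1 (median 0.12), 5 without saliva immune replicate 2 (median 0.03) and 2 without saliva immune replicate 3 (median -0.34).

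3 bites against 2 bites skin gave log2 differences of -0.34 (ANGPTL4) to 0.84 (GPD1), with 5 of 10 above 0 and a median of 0.03 against 0.13 over all genes. None passed limma (adjusted p from 0.476 to 0.990), nor did any other gene (0.00%). At an unadjusted p under 0.05 there were 0 of the 10, against 10.8% of all genes, 8.12% higher and 2.66% lower. Without 3 bites replicate 1 it was 1 of 10 above 0 (median -0.56), without 3 bites replicate 2 it was 9 of 10 (median 0.75), and without 2 bites replicate 1 it was 9 of 10 (median 0.22). In GPD1 the 2 groups only just stood apart (95.3 and 46.6 TPM in 3 bites, 29.9 and 45.1 TPM in 2 bites skin). The share of all genes separated in this way was not counted.

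Within a group, the same library tended to be high for many of the genes. First exposure replicate 1 was the highest of its group for every gene but ANGPTL4, saliva immune replicate 3 the highest of its group for LEP, ADIPOQ, PPARG, LIPE, PLIN1 and CIDEC, and 3 bites replicate 1 stood above 3 bites replicate 2 for all 10 genes. Summed over the 10 genes, TPM ran from 2752 to 7728 in bitten CK1 skin, against 1007 and 1418 in its naive skin, and from 1287 to 3276 in bitten EF19-5 skin, against 2517 in its naive library.

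Because a ratio of 2 genes in the same library does not depend on its other transcripts, each gene was also set against ADIPOQ. LIPE had the most even ratio over the 13 libraries, at 0.139 to 0.184 in bitten CK1 skin against 0.147 and 0.220 in its naive skin, and 0.133 to 0.203 in bitten EF19-5 skin against 0.204 in its naive library. PLIN1 had a ratio of 0.123 to 0.159 in bitten CK1 skin against 0.157 and 0.164 in its naive skin, and 0.0633 to 0.135 in bitten EF19-5 skin against 0.138 in its naive library. LEP was 1.42 to 3.77 times ADIPOQ in bitten CK1 skin against 1.51 and 2.90 times in naive skin, and 1.46 to 2.85 times in bitten EF19-5 skin against 3.60 times in the naive library. In CK1 the bitten and naive libraries overlapped in this ratio, although they did not overlap in LEP itself. FABP4 and PNPLA2 had lower ratios in bitten CK1 skin (0.460 to 0.927 and 0.137 to 0.324) than in the naive library with the least ADIPOQ, naive replicate 2 (1.86 and 0.865), while naive replicate 1 stood at 0.979 and 0.311. In EF19-5 their naive ratios (1.40 and 0.253) lay within the bitten ranges (0.652 to 1.85 and 0.158 to 0.300). PPARG ratios overlapped in both experiments. They were 0.0209 to 0.0458 in bitten against 0.0406 and 0.0608 in naive CK1 skin, and 0.0194 to 0.0472 against 0.0304 in EF19-5.

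The ratio of ANGPTL4 to ADIPOQ was 0.0109 to 0.0302 in bitten and 0.0197 and 0.0311 in naive skin of CK1, and 0.0333 to 0.102 in bitten and 0.0539 in naive skin of EF19-5, so that every EF19-5 library lay above every CK1 library. GPD1 had the widest range, at 0.126 to 0.432 in bitten CK1 skin against 1.03 and 4.83 in its naive skin, and at 0.0522 to 0.236 in bitten EF19-5 skin against 0.304 in its naive library. CIDEC had a ratio of 0.0923 to 0.142 in bitten CK1 skin against 0.142 and 0.219 in its naive skin, and of 0.0728 to 0.133 in bitten EF19-5 skin against 0.169 in its naive library. For both GPD1 and CIDEC the naive libraries lay above the bitten ones in each experiment, for CIDEC in CK1 only just. In EF19-5 the naive library also lay above the bitten ones for LEP, PLIN1 and, only just, LIPE. In CK1 both naive libraries did so for FABP4. All these ratios share ADIPOQ as the divisor, and the share of all genes separated in this way was not counted.

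**Figure D4:**
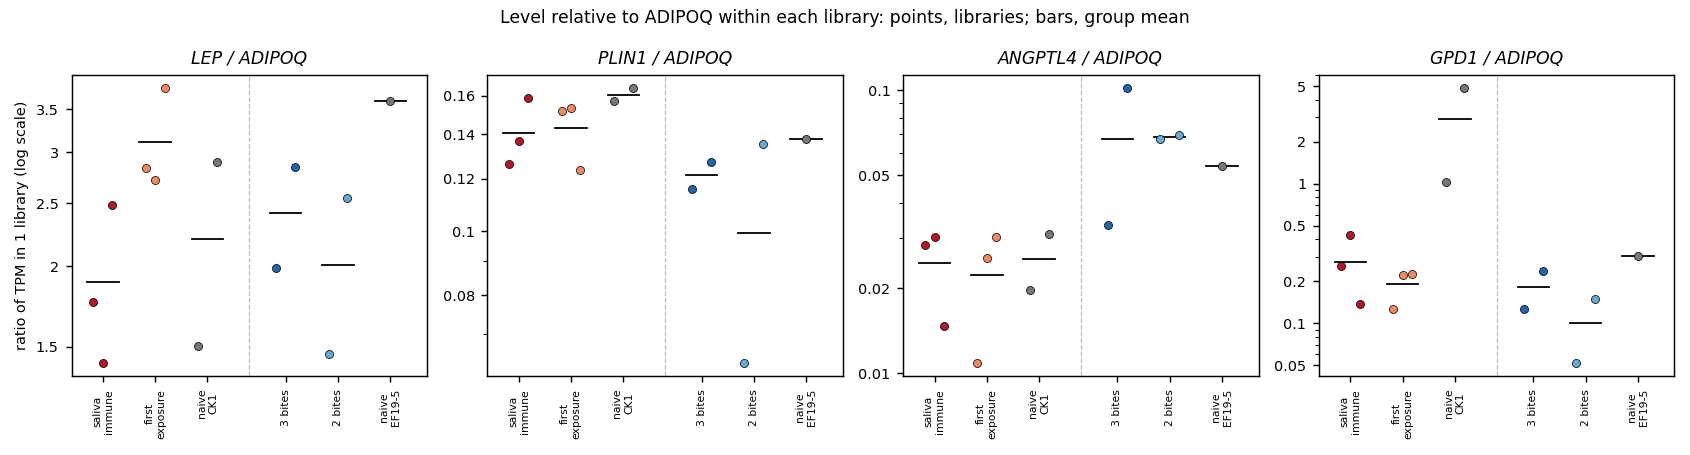
Ratio of the TPM of LEP, PLIN1, ANGPTL4 and GPD1 to that of ADIPOQ in the same library (log axis), by group; points are libraries and bars are group means. LEP and PLIN1 ratios overlap between bitten and naive CK1 skin, ANGPTL4 ratios lie higher in EF19-5, and GPD1 ratios are highest in the naive skin of CK1, at 1.03 and 4.83.

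The genes whose log2(TPM + 1) was most like LEP, ADIPOQ, GPD1 or ANGPTL4 over the 13 libraries, among 12079 other tested genes with a symbol, are given as a description, since all points share the libraries and the experiments. ADIPOQ was followed most closely by TSHR, the thyrotropin receptor, which adipocytes also carry (Pearson's r = 0.99, Spearman's rho = 0.99), by B3GALNT1, a glycosyltransferase (0.98 and 0.99), and by MASP1, a protease of the lectin complement pathway (0.98 and 0.95). LEP was followed by Adrb1, the beta-1 adrenergic receptor (0.96 and 0.96), by DMGDH, a mitochondrial enzyme of choline breakdown (0.95 and 0.94), and by CHODL, a membrane lectin (0.94 and 0.96). GPD1 was followed by ACTN3, an actinin of fast muscle fibres (0.98 and 0.96), by ARVCF, a catenin of cell junctions (0.97 and 0.93), and by GPD2, the mitochondrial partner of GPD1 in the glycerol phosphate shuttle (0.97 and 0.93). Within the 8 CK1 libraries Pearson's r of these genes was 0.998, 0.987 and 0.981 for ADIPOQ, 0.975, 0.949 and 0.977 for LEP, and 0.935, 0.908 and 0.941 for GPD1. For ANGPTL4 the nearest were NAGK, AADAC and CPNE2 (r = 0.92, 0.92 and 0.91), and without the 2 libraries farthest from its median r dropped to 0.81, 0.50 and 0.69.

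Other genes of fat metabolism were taken from lists by function, none of whose members passed limma in either experiment or in the contrast between them. Over all genes tested, 67.05% stood higher in bitten skin of CK1, 11.1% of all genes tested did so at an unadjusted p under 0.05, and 50.9% stood higher in EF19-5, and the counts of each list are read against these shares. The lists, too, were chosen with earlier results of these data known. Of 11 lipolysis genes tested, 10 stood higher in bitten CK1 skin, 9 of them at an unadjusted p under 0.05, with a median log2 difference of 1.11. In EF19-5, 6 of 11 stood higher, with a median of 0.03. MGLL, the lipase of the last fatty acid, stood at 240 ± 71.2 TPM in bitten (n = 6) and 108 ± 35.1 TPM in naive CK1 skin (n = 2), a log2 difference of 1.13 (adjusted p = 0.144). PDE3B, through which insulin restrains lipolysis, stood at 17.5 ± 8.60 TPM in bitten and 5.11 ± 3.36 TPM in naive CK1 skin. ABHD5, the co-activator of PNPLA2, stood at 100.2 ± 16.8 TPM in bitten and 67.6 ± 19.3 TPM in naive CK1 skin. In EF19-5 the log2 differences were 0.21 for MGLL, 0.44 for PDE3B and -0.11 for ABHD5. The aquaglyceroporin AQP3, which keratinocytes use too, stood higher in both experiments, at log2 differences of 1.17 in CK1 and 1.37 in EF19-5.

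Of 21 genes of triglyceride synthesis and the droplet coat, 19 stood higher in bitten CK1 skin, 12 at an unadjusted p under 0.05, with a median of 0.70. In EF19-5, 11 of 21 did, with a median of 0.01. CIDEA, a droplet protein of sebocytes and thermogenic fat, differed most of these by its p value, at 35.7 ± 13.8 TPM in bitten and 9.17 ± 4.94 TPM in naive CK1 skin (log2 difference 1.86, adjusted p = 0.134). In EF19-5, CIDEA stood at 11.8 ± 3.56 TPM in bitten skin (n = 4) and 17.5 TPM in the naive library. The acyltransferases of triglyceride assembly stood higher in bitten than in naive CK1 skin too. AGPAT2 stood at 58.2 ± 11.3 TPM in bitten and 27.9 ± 8.33 TPM in naive skin, GPAM at 34.6 ± 4.93 TPM in bitten and 21.0 ± 6.64 TPM in naive skin, and DGAT1 at 68.4 ± 16.7 TPM in bitten and 38.5 ± 14.4 TPM in naive skin. In EF19-5 their log2 differences were 0.13, -0.02 and 0.28.

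Of 10 genes of fatty acid uptake, 9 stood higher in bitten CK1 skin, 5 at an unadjusted p under 0.05, with a median of 0.49. In EF19-5, 7 of 10 did, with a median of 0.17. Lpl, the target of ANGPTL4, stood at 168 ± 89.8 TPM in bitten and 71.4 ± 40.8 TPM in naive CK1 skin, and at 109 ± 26.3 TPM in bitten and 89.8 TPM in naive EF19-5 skin. GPIHBP1, which carries Lpl to the capillary wall, stood at 5.42 ± 1.13 TPM in bitten and 1.31 ± 0.400 TPM in naive CK1 skin, and had a log2 difference of 0.36 in EF19-5. The scavenger receptor CD36, a fatty acid transporter, stood at 60.5 ± 19.3 TPM in bitten and 22.9 ± 9.46 TPM in naive CK1 skin, and at 26.2 to 55.7 TPM in the 4 bitten against 19.995 TPM in the naive library of EF19-5. SLC27A4 and Acsl1, which import and activate fatty acids, had log2 differences of 0.77 and 0.70 in CK1 and of 0.14 and 0.21 in EF19-5.

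Of 13 further adipokine and receptor genes, 11 stood higher in bitten CK1 skin, 3 at an unadjusted p under 0.05 (CFD, RBP4 and METRNL), with a median of 0.27. In EF19-5, 5 of 13 did, with a median of -0.07. CFD, the complement protease adipsin, stood at 4273 ± 1700 TPM in bitten and 1346 ± 329.9 TPM in naive CK1 skin, and at 1374 ± 651 TPM in bitten and 1707 TPM in naive EF19-5 skin. RBP4, the retinol carrier, stood at 45.0 ± 14.5 TPM in bitten and 14.0 ± 4.55 TPM in naive CK1 skin, and at 21.5 ± 13.4 TPM in bitten and 23.4 TPM in naive EF19-5 skin. METRNL, a secreted protein of skin and fat, stood at 142 ± 28.3 TPM in bitten and 93.9 ± 42.2 TPM in naive CK1 skin, and had a log2 difference of -0.09 in EF19-5.

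Of 14 adipocyte transcription factors other than PPARG, 9 stood higher in bitten CK1 skin, near the share over all genes, and none passed at an unadjusted p under 0.05. In EF19-5, 4 of 14 stood higher. The oxysterol receptor NR1H3 had the smallest p among them (log2 difference 0.62, adjusted p = 0.342). Of 13 PPAR target genes, 10 stood higher in CK1 and 5 in EF19-5, and 5 in CK1 passed at an unadjusted p under 0.05, among them UCP2, a mitochondrial carrier, and ACADVL of fatty acid oxidation. UCP2 stood at 47.4 ± 19.1 TPM in bitten and 20.8 ± 4.14 TPM in naive CK1 skin, and at 68.2 ± 42.6 TPM in bitten and 40.3 TPM in naive EF19-5 skin. ACADVL stood at 99.0 ± 7.70 TPM in bitten and 71.6 ± 9.24 TPM in naive CK1 skin, and at 89.1 ± 8.11 TPM in bitten and 90.2 TPM in naive EF19-5 skin. Of 11 genes of insulin and glucose handling, 3 stood higher and 8 lower in both CK1 and EF19-5. PFKFB3, a regulator of glycolysis, stood at 35.3 ± 10.1 TPM in bitten and 14.9 ± 8.61 TPM in naive CK1 skin, and at 51.8 ± 17.2 TPM in bitten and 32.2 TPM in naive EF19-5 skin. GPD2 stood at 32.0 ± 4.06 TPM in bitten and 49.7 ± 10.5 TPM in naive CK1 skin, and at 18.8 ± 6.04 TPM in bitten and 25.2 TPM in naive EF19-5 skin. TXNIP, which restrains glucose uptake, pointed in opposite directions, at 311 ± 70.0 TPM in bitten and 203 ± 11.3 TPM in naive CK1 skin and at 300.5 ± 111 TPM in bitten and 496 TPM in naive EF19-5 skin, and had the contrast with the smallest p on that list (log2 1.37, adjusted p = 0.999). Of 8 genes of fat progenitors, 4 stood higher and 4 lower in bitten CK1 skin, with a median of 0.05, and 5 of 8 stood higher in EF19-5. The progenitor gene DLK1 stood at 0.859 ± 0.408 TPM in bitten and 2.51 ± 0.727 TPM in naive CK1 skin, while PDGFRB and PI16 had positive log2 differences of 0.58 and 0.54. In EF19-5 the log2 differences were -0.74 for DLK1, 0.18 for PDGFRB and 0.09 for PI16.

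**Figure D5:**
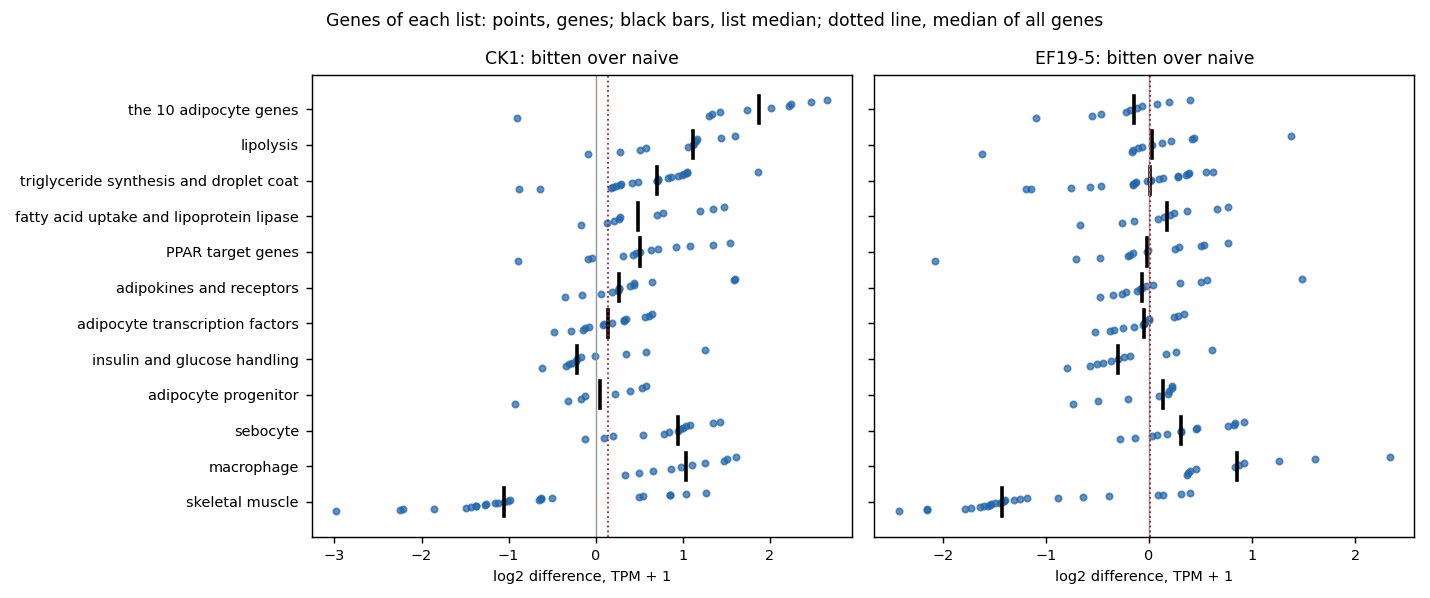
Log2 difference between bitten and naive skin for every tested gene of each list, in CK1 (left) and EF19-5 (right); points are genes, black bars list medians and the dotted line the median of all genes tested. The median of the 10 adipocyte genes is 1.87 in CK1 and -0.15 in EF19-5, and that of the skeletal muscle genes lies below 0 in both.

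Markers of other tissues also differed between these libraries. UCP1, the defining gene of brown fat, was listed at 0 in all 13 libraries. Of 25 skeletal muscle genes, 19 stood lower and 6 higher in bitten CK1 skin. At an unadjusted p under 0.05, 10 were lower and 0 higher, against 3.92% and 11.1% of all genes. In EF19-5, 21 stood lower and 4 higher. At the same threshold 10 were lower and 0 higher there, against 1.38% and 1.92% of all genes. ACTN3 stood at 800.3 ± 305 TPM in bitten and 3759 ± 1538 TPM in naive CK1 skin, and at 134 ± 133 TPM in bitten and 544 TPM in naive EF19-5 skin. Those higher in bitten CK1 skin included TNNT1, at 666 ± 316 TPM in bitten and 315 ± 34.8 TPM in naive skin. TNNI1 (414 ± 231 and 179 ± 25.7 TPM) and ACTN2 (985 ± 512 and 563 ± 175 TPM) did so too. In saliva immune replicate 3 each of them lay below both CK1 naive libraries. In EF19-5, TNNI1 and ACTN2 stood lower in bitten skin. The muscle list lay lower in bitten skin of both experiments (median log2 difference -1.05 in CK1 and -1.43 in EF19-5).

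Of 13 sebocyte genes, a list that holds PPARG, 12 stood higher in bitten CK1 skin, 8 at an unadjusted p under 0.05, and 11 of 13 stood higher in EF19-5. Their summed level was 1462 to 3792 TPM in bitten and 790 and 1883 TPM in naive CK1 skin, and 1548 to 2408 TPM in bitten and 1525 TPM in naive EF19-5 skin. SOAT1, which makes cholesterol esters, stood at 44.9 ± 12.5 TPM in bitten and 21.7 ± 9.22 TPM in naive CK1 skin, and the wax synthase AWAT1 at 40.9 ± 15.9 TPM in bitten and 19.4 ± 8.95 TPM in naive CK1 skin. In EF19-5, AWAT1 stood at 16.6 to 23.7 TPM in the 4 bitten libraries against 11.7 TPM in the naive one. All 10 macrophage genes tested stood higher in bitten skin of both experiments, with summed levels of 232 to 581 TPM in bitten and 110 and 151 TPM in naive CK1 skin, and of 137 to 1059 TPM in bitten and 262 TPM in naive EF19-5 skin. CD68 stood at 74.0 ± 20.5 TPM in bitten and 25.7 ± 10.2 TPM in naive CK1 skin, and CD14 at 19.2 ± 5.05 TPM in bitten and 5.64 ± 2.38 TPM in naive CK1 skin. In EF19-5, CD68 stood at 90.1 ± 38.04 TPM in bitten and 62.9 TPM in naive skin, and CD14 at 24.9 ± 16.5 TPM in bitten and 14.8 TPM in naive skin. Of 8 endothelial genes, 8 stood higher in bitten skin of CK1 and 7 in EF19-5, and of 7 epidermal genes, 6 did in CK1 and 7 in EF19-5. Of 10 fibroblast genes, 8 stood lower in each experiment. The part of these cells' content in the adipocyte values was not tested beyond the muscle share given above.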

How the data were processed

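The authors deposited TPM values in 1 table, with 26855 gene rows and a column for each of 13 libraries. Trimmomatic, StringTie and DESeq are named, without versions or roles, in the submitters' processing notes; for the aligner, build and annotation, nothing is given in the sources used here. TPM keeps no depth. Libraries were grouped by the immunization label and by title prefix.

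The 14979 genes that reached 1 TPM in 2 or more libraries entered limma 3.58.1 (R 4.3.3) as log2(TPM + 1). Tests were two-sided with a mean-variance trend, and p-values were adjusted by Benjamini-Hochberg over all of them, with a threshold of 0.05. Folds are on that scale and understate low genes. A single model held 6 means, 1 for each combination of group and experiment. It was tested on simulated data in which 200 genes were changed. The 10 genes and the lists were chosen with earlier results of these data known. Named list genes come from those with the 4 smallest p-values per list in the CK1 comparison or in the contrast of the 2 changes, plus LEPR, ADIPOR1, ADIPOR2, Lpl and CD36. KRT14 falls under this rule, and UCP1 was added after its values were seen. A gene that the rule also names is not reported here. Median-of-ratios scaling moved the median of all genes from 0.14 to 0.00 in CK1 and from 0.12 to -0.02 in the contrast, and turned the direction of none of the 10 genes in either. Alternatives covered pseudocount, filter, scaling, muscle content, array weights (gene-by-gene method, since the default did not converge), trend, experiment terms and each library left out.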

Additional observations from a re-analysis of the deposited data

How the results depend on the processing

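Under 23 alternative settings for bitten against naive skin in CK1, 9 of the 10 genes kept a higher level and GPD1 a lower one, and ANGPTL4 was the only gene of the 10 called. Settings with 1 bitten term fit both experiments together. They give the same values for CK1 and EF19-5 and are not a comparison within either. The 7 genes called in CK1 among all genes became 19 with a pseudocount of 0.1, 4 with array weights and 3 with 1 bitten term and no experiment term, and ranged from 1 (without first exposure replicate 3, naive replicate 1 or naive replicate 2) to 18 (without saliva immune replicate 3) as each library was left out. In EF19-5 the 2 called became 35 without a filter and 6 with 1 bitten term and experiment as a term. They became 1 with median-of-ratios scaling, with the muscle covariate or with the experiment fitted alone. The count of 0 became 24 without a filter for the contrast of the 2 changes (0 to 1 over libraries left out), and 39 without a filter and 2 with the muscle covariate for the naive libraries (0 to 283, 283 without saliva immune replicate 3). It became 20 with array weights and 1 with the experiment fitted alone for saliva immune against first exposure (0 to 1), and 4 without a filter, 1 without a trend and 1422 with the muscle covariate for 3 bites against 2 bites (0 to 4). Why these counts moved was not tested.

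The small EF19-5 differences changed sign under some settings. A term for bitten skin shared by both experiments takes in the CK1 libraries, and with and without an experiment term it gave 1.54 and 1.51 for LEP, 1.40 and 1.37 for LIPE, 1.39 and 1.33 for PLIN1, 0.79 and 0.80 for FABP4, 0.97 and 0.94 for CIDEC, and 0.82 and 0.77 for PNPLA2. The muscle covariate gave -0.14 for ADIPOQ, -0.34 for PPARG and 0.22 for PNPLA2. Leaving out single libraries gave -0.29 to 0.67 for ADIPOQ, -0.070 to 0.23 for PPARG, -0.50 to 0.26 for LIPE, -0.62 to 0.26 for PLIN1 and -0.32 to 0.18 for PNPLA2, with the low ends without 3 bites replicate 1 and the high ends without 3 bites replicate 2. The contrast for GPD1 ranged from -0.084 (without naive replicate 1) to 0.47 (without naive replicate 2). Between the naive libraries, PPARG was -0.22 with the muscle covariate and -0.013 to 0.96 with a library left out, and PNPLA2 was -0.032 with median-of-ratios scaling. Without naive replicate 3 the EF19-5 comparison and the contrast have no value. No paired analysis was possible because the labels give no replicate numbers that groups share. TPM keep no read depth, so counting error is unknown, and 3 naive libraries limit every comparison with naive skin.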
